A study of Mus musculus with 12 samples.

Results

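The comparison described here set caudal serotonin neurons against the other cells of the same caudal neural tube. It rested on 6 of the 12 arrays of the study, chosen by their titles with earlier results of these data known. They were 3 arrays of caudal cells sorted as positive for yellow fluorescent protein (C+) and 3 arrays of caudal cells sorted as negative (C-). All embryos were mice of the genotype ePet-EYFP at embryonic stage E12.5, a transgenic line in which an enhancer drives the fluorescent protein in serotonin neurons, so that both groups carried the transgene and no untreated or wild-type group entered. The caudal domain ran from the pontine flexure down to the spinal cord; it was dissociated with mild trypsin and trituration and sorted by flow cytometry straight into Trizol, with 200000 cells behind each array. The remaining 6 arrays held the matching populations of the rostral domain, between the mesencephalic and pontine flexures (R+ and R-), and served to estimate the spread and to test where the caudal difference departed from the rostral one. The labels call the 3 arrays of a group biological replicates without saying whether they came from separate litters, so that the p-values speak only for the spread among these arrays.

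Values below are MAS5 signals of single arrays on a linear scale, listed in the order of replicates 1, 2 and 3. Differences are C+ minus C- on the log2(signal + 10) scale with their standard error, n = 3 arrays per group, and p-values were adjusted over 12845 genes by the Benjamini-Hochberg method from a limma fit over all 12 arrays. A gene was called where its adjusted p was under 0.05. Genes named for the size of their difference also had to have caudal groups that did not overlap. For those genes the lack of overlap was fixed by the choice. Adding 10 to each signal understates the fold change of dim genes.

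The genes given as markers of caudal serotonin cells, along with the choice of arrays, went with the labels. The cells were sorted on the fluorescent protein and not on these genes. Tph2, the enzyme that starts serotonin synthesis in neurons, had signals of 1869, 2260 and 2449 in C+ and 18, 18 and 41 in C-. Slc6a4, the serotonin transporter of the plasma membrane, read 8341, 9247 and 10435 in C+ and 30, 65 and 13 in C-. Irs4, an adaptor of insulin and growth factor receptors and the third marker given for caudal serotonin cells, stood at 2976, 3183 and 3889 in C+ and 45, 97 and 91 in C-. For each of the 3 markers, the lowest C+ array lay far above the highest C- array, and the C- signals were below the median signal of 107 over all probe sets and arrays. Slc18a2, the transporter that loads serotonin into vesicles, read 2491, 1752 and 2062 in C+ and 72, 77 and 60 in C-, a difference of 4.72 ± 0.18. Lmx1b, a transcription factor of the serotonin lineage, read 7360, 5354 and 4956 in C+ and 1429, 573 and 742 in C-. It was also higher on every C+ array, but kept a signal well above the median in C-. The sample titles call C- non-serotonin neurons, whereas the design text speaks of cells; genes of dividing progenitors and of blood were among those higher in C-, as described below, so that C- was not made of neurons alone.

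Serotonin neurons of the hindbrain arise close to the floor plate, in the ventral territory patterned by sonic hedgehog, and are set apart by a chain of transcription factors that includes Nkx2-2, Gata2, Gata3 and Lmx1b. They turn tryptophan into serotonin through tryptophan hydroxylase and aromatic amino acid decarboxylase, with tetrahydrobiopterin as the cofactor of the first step. The caudal group gives rise to the raphe nuclei of the medulla, known for projections to the spinal cord and for neuropeptides stored beside serotonin.

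The promoters shown are those of the 3 serotonin handling genes with the largest C+ minus C- difference. That all 3 were higher in C+ followed from this choice. Each window runs from 250 bases before to 50 bases after the RefSeq start site on the GRCm38.p6 build: Slc6a4 at chr11:76998347-76998646 on the plus strand, Gchfr at chr2:119167538-119167837 on the plus strand and Tph2 at chr10:115184973-115185272 on the minus strand. Capitals mark matches, on either strand, to the GATA words AGATAA or AGATAG or TGATAA or TGATAG and to the ETS words CCGGAA or CAGGAA.
Slc6a4: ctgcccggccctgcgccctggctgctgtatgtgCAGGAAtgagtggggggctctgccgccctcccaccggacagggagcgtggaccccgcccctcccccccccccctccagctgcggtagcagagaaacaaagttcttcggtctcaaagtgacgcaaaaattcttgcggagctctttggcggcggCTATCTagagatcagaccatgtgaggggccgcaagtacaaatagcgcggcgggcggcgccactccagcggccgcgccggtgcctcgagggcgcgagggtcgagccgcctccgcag
Gchfr: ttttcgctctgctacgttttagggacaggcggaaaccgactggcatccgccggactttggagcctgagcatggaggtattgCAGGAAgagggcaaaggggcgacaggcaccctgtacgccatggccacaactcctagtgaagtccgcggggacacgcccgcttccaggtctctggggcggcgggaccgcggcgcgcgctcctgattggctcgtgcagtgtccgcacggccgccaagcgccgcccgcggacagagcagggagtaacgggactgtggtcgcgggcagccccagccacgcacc
Tph2: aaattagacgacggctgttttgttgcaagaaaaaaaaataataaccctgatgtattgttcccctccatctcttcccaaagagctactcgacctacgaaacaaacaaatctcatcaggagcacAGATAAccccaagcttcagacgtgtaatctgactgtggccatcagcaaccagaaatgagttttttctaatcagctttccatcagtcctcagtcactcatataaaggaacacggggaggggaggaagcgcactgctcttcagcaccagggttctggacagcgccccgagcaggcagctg
The Slc6a4 window held an ETS word, CAGGAA, whose first base lay at -217 from the start site, and the GATA word AGATAG on the opposite strand at -65. The Gchfr window held CAGGAA at -169 and no GATA word, and the Tph2 window held AGATAA at -128 and no ETS word. Of 32851 mouse promoter windows of the same length, 29.8% held at least 1 of the GATA words and 41.4% at least 1 of the ETS words, so that such matches are common. GC content was 67.7% for Slc6a4, 67.0% for Gchfr and 47.3% for Tph2.

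The deposited signals had the same trimmed mean, 500, on every array. Log2 signals correlated at 0.942 to 0.967 among the C+ arrays, at 0.946 to 0.958 among the C- arrays and at 0.893 to 0.925 between the groups, over the 12845 genes of 1 chip design. The ratio of 3' to 5' signal of the beta-actin control probe sets, a sign of RNA integrity and amplification, was 5.79 ± 1.20 (SD, n = 3) in C+ and 5.75 ± 1.69 (SD, n = 3) in C-, and an exact two-sided permutation test gave p = 1. The corresponding Gapdh ratio was 3.20 ± 1.52 and 2.03 ± 0.48 (SD, n = 3 each; exact permutation p = 0.3, where 3 against 3 arrays cannot go below 0.1). Within replicate numbers 1, 2 and 3 the Gapdh ratio was 1.60 in C+ against 1.54 in C-, 3.36 against 2.06 and 4.63 against 2.50, so that it was higher in C+ in all 3 pairs, for which an exact paired permutation test gave p = 0.25, the smallest that 3 pairs allow. The beta-actin ratio lay between 4.52 and 7.69 on the caudal arrays and between 2.64 and 4.39 on the rostral ones.

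Of 12845 genes tested, 1683 were called between C+ and C- (13.1%), 734 higher in C+ (5.71%) and 949 lower (7.39%). With the replicate number as a block, the count rose to 2929, with 1344 higher (10.5%) and 1585 lower (12.3%), and included the 1683. Counts of list members below are to be read beside these shares, 5.71% and 7.39% without the block and 10.5% and 12.3% with it. With the beta-actin ratio as a covariate 2027 genes were called, again with all of the 1683 among them, and with the Gapdh ratio, a fit added after its values were seen, 2060, with 1520 of the 1683. At least 2-fold differences were reached by 327 of the higher and 593 of the lower genes, and at least 8-fold ones by 35 and 55. Of the called genes, 729 of the 734 higher and 937 of the 949 lower ones had all 3 arrays of a group beyond all 3 of the other, against 1575 (12.3%) and 1934 (15.1%) such genes in all. A lower level in a sorted population can come from fewer cells of a type or from less RNA per cell, and bulk arrays cannot tell these apart.

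**Figure D1:**
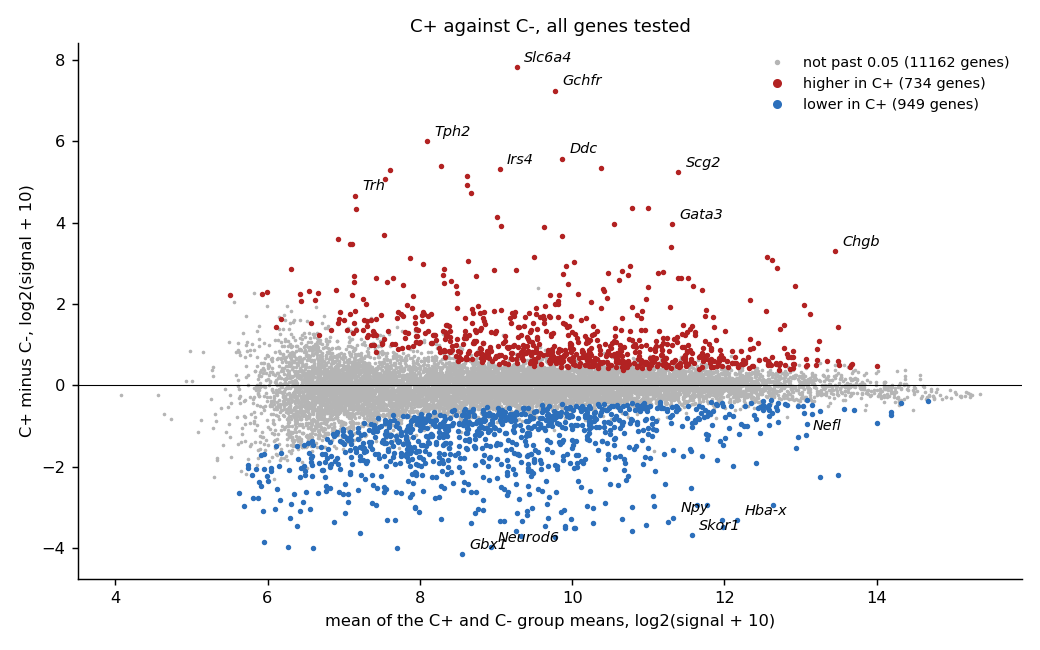
Each point is 1 of the 12845 genes tested; the horizontal axis is the mean of the C+ and C- group means and the vertical axis C+ minus C-, both on the log2(signal + 10) scale, with the 734 genes higher and the 949 genes lower in C+ coloured. Slc6a4 and Gchfr lie at the top, at 7.83 and 7.24, while no gene lies below -4.16 (Gbx1).

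Genes that make, store, move and break down serotonin were the clearest group. Of 16 measured genes on the list of serotonin handling, 11 were higher in C+, 0 were lower, and the median difference was 2.17 beside -0.039 over all genes tested. Slc6a4 differed by 7.83 ± 0.32 (adjusted p = 6.32e-10), which is 227-fold on this scale. Tph2 differed by 6.0 ± 0.34, or 64.0-fold, and its relative Tph1, the enzyme of the pineal gland and gut, did not pass (-0.43). Ddc, the decarboxylase that makes serotonin from its precursor, had signals of 5848, 6286 and 7292 in C+ and 117, 125 and 135 in C-, a difference of 5.58 ± 0.14. The next gene by size, 1700042O10Rik, differed by 5.38 ± 0.39, but its annotated span lies within Ddc, so that the signals may not be separable.

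The cofactor genes split. Gchfr, the feedback regulator of the first enzyme of tetrahydrobiopterin synthesis, read 11050, 10658 and 10614 in C+ and 71, 37 and 85 in C-. That enzyme itself, Gch1, read 3104, 2092 and 1949 in C+ and 67, 139 and 15 in C-. In both genes the C+ arrays lay far above the C- arrays, with differences of 7.24 ± 0.34 and 5.15 ± 0.45. Pcbd1, which helps to recycle the cofactor, was higher by 1.41 ± 0.15 (adjusted p = 1.54e-05), whereas the later synthetic enzymes Pts and Spr did not pass, at 0.0094 and -0.19. The monoamine oxidases break serotonin down. Maob read 985, 1057 and 1193 in C+ and 18, 7 and 60 in C-, a difference of 5.08 ± 0.38. Maoa read 4535, 4519 and 5336 in C+ and 496, 682 and 697 in C-, a difference of 2.93 ± 0.19. Neither overlapped between the groups, and Maob was dim enough in C- for its fold change to be understated. Among 8 measured serotonin receptors, 2 were higher and 0 lower. The autoreceptor Htr1a had 831, 799 and 920 in C+ and 107, 87 and 133 in C-, a difference of 2.87 ± 0.24 without overlap. Htr2c was the other, at 1.37 ± 0.39 (adjusted p = 0.0312); its call was lost when a single array was left out (adjusted p = 0.105 without C+ replicate 2, 0.139 without C+ replicate 3, 0.0971 without C- replicate 1 and 0.121 without C- replicate 3), with no filter on low signals (0.0523) or with the Gapdh ratio as a covariate (0.081). The autoreceptor Htr1b was not called through its brightest probe set (-0.58), but its other kept probe set averaged 489.7 in C+ and 54.0 in C-, higher by 3.12 ± 0.41 (adjusted p = 0.000237 over all probe sets), and the mean of its probe sets passed as higher (1.27, adjusted p = 0.0227). Over all lists, 15 genes that were not called had another kept probe set that passed, 5 of them higher and 10 lower. Counts of members therefore depend on the choice of 1 probe set per gene.

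**Figure D2:**
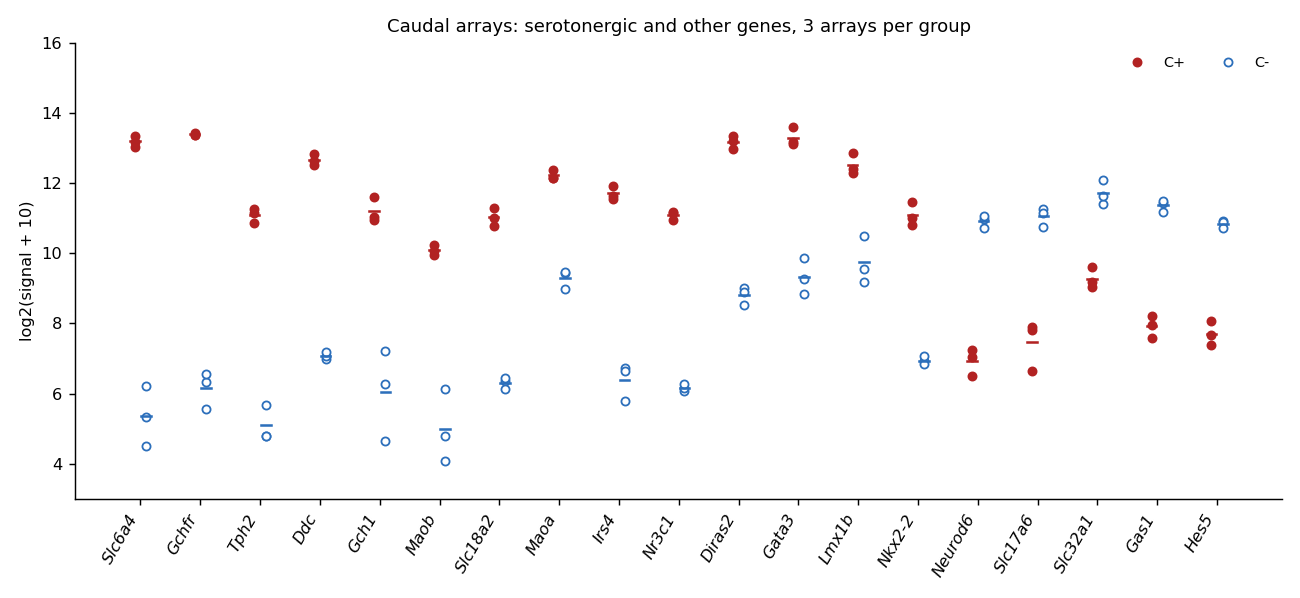
Signals of 19 genes on the 6 caudal arrays, as log2(signal + 10); filled circles are C+ arrays, open circles C- arrays and short lines group means. In each gene shown the 3 C+ arrays do not overlap the 3 C- arrays; they lie above in the 14 genes from Slc6a4 to Nkx2-2 and below in the 5 from Neurod6 to Hes5.

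Transcription factors of the serotonin lineage were called in both directions, within the limits of 9 measured members. Of these, 4 were higher, 2 lower and 3 not called, with a median of 0.16. Gata3 read 12454, 9129 and 8832 in C+ and 927, 451 and 605 in C-, a difference of 3.96 ± 0.22. Its relative Gata2 read 8003, 8130 and 8257 in C+ and 686, 912 and 713 in C-, a difference of 3.39 ± 0.15. Both kept signals above the median on the C- arrays without reaching the C+ ones, and Lmx1b differed by 2.76 ± 0.28. Insm1, a zinc finger factor of newly born neurons and endocrine cells, was higher by 1.25 ± 0.21 (adjusted p = 0.000816). The lower pair was Sox4, a broad factor of immature neurons, at -0.72 ± 0.13, and St18 at -2.43 ± 0.23. With the mean of a gene's probe sets in place of the 1 chosen, neither passed (adjusted p = 0.154 and 0.0741).

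The ventral patterning genes moved in both directions, 5 of 17 higher and 6 lower. The floor plate and ventral progenitor factors made up the higher side. Nkx2-2 had 2806, 2041 and 1763 in C+ and 112, 104 and 124 in C-, a difference of 4.14 ± 0.18. Foxa2, a floor plate factor, read 392, 552 and 601 in C+ and 148, 37 and 101 in C-. Its close relative Foxa1 read 489, 1011 and 1082 in C+ and 104, 157 and 133 in C-. In all 3 genes the groups did not overlap, and the Foxa pair differed by 2.46 ± 0.33 and 2.56 ± 0.28. The secreted signal Shh itself read 1897, 5595 and 5351 in C+ and 562, 892 and 504 in C-, a difference of 2.59 ± 0.35, with C+ replicate 1 apart from the other C+ arrays but still above C-. Nkx6-1, a factor of ventral progenitors and their neurons, was higher by 2.11 ± 0.37. The lower side held coreceptors and transcriptional effectors of hedgehog: Gas1 (-3.45 ± 0.33), Gli2 (-3.0 ± 0.38), Boc (-2.24 ± 0.24), Gli3 (-0.99 ± 0.21) and Cdon (-0.92 ± 0.20). The sixth, Olig2 of motor neuron progenitors, had 36, 14 and 8 in C+ and 133, 87 and 76 in C- (adjusted p = 0.0279), and leaving out any 1 of 5 caudal arrays, all but C+ replicate 1, ended its call, with adjusted p from 0.0531 to 0.124, as did fitting the 6 caudal arrays alone (0.128) or adding the Gapdh ratio as a covariate (0.0835). The hedgehog transducer Smo, at -0.53, passed with the replicate block (adjusted p = 0.0109, against 0.183 without it).

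Several of the 20 genes with the largest higher level in C+ stood on no list. Cryba2, a crystallin, read 10491, 8218 and 7097 in C+ and 209, 258 and 143 in C-. Arhgef3 read 1147, 1317 and 1200 in C+ and 7, 45 and 22 in C-. Nr3c1, the glucocorticoid receptor, read 1953, 2240 and 2295 in C+ and 57, 61 and 67 in C-. In each of them C+ lay above every C- array, which the choice of these genes required. The differences were 5.35 ± 0.19, 5.31 ± 0.43 and 4.92 ± 0.25. The small GTPase Diras2 read 8058, 9449 and 10337 in C+ and 358, 501 and 467 in C-, a difference of 4.37 ± 0.15 (2.49 with the mean of its probe sets), so that C- also held it above the median. The uncharacterised transcripts AW551984 and A230006K03Rik were higher by 4.36 ± 0.13 and 4.34 ± 0.51.

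Peptide genes divided sharply. Of 24 measured neuropeptide precursors, 5 were higher and 8 lower in C+. Trh, the precursor of thyrotropin-releasing hormone found in medullary serotonin neurons, read 824, 592 and 719 in C+ and 13, 25 and 18 in C-; all 3 C+ arrays were high and all 3 C- arrays near the bottom of the scale. Penk, the enkephalin precursor, read 5727, 5478 and 6687 in C+ and 527, 384 and 244 in C-. Tac1, the precursor of substance P, read 3763, 5461 and 4036 in C+ and 569, 682 and 726 in C-. Neither overlapped, and the 3 differences were 4.66 ± 0.53, 3.98 ± 0.21 and 2.72 ± 0.20, with adjusted p of 2.02e-05, 8.22e-09 and 2.34e-07. Pdyn, which encodes dynorphin, was also higher (1.63 ± 0.35). Npy, the precursor of neuropeptide Y, read 786, 850 and 828 in C+ and 10175, 7383 and 6532 in C-. Sst, the precursor of somatostatin, read 620, 626 and 556 in C+ and 9237, 7121 and 4365 in C-. Both were lower on every C+ array, by differences of -3.25 ± 0.16 and -3.44 ± 0.29. Pnoc, Cartpt and Cbln1 were lower by smaller ones (-1.41 ± 0.30, -1.21 ± 0.22 and -1.0 ± 0.20).

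The machinery of dense-core vesicles, which store peptides, was higher in part: 4 of 17 measured members were higher and 0 lower, with a median of 0.32, and 6 higher and 1 lower with the replicate block. Scg2, a granin, read 15607, 16549 and 17456 in C+ and 365, 486 and 444 in C-. Chgb, another granin, read 37178, 38747 and 30559 in C+ and 3562, 3777 and 3369 in C-. C+ was higher without overlap in both. Their differences of 5.24 ± 0.13 and 3.30 ± 0.16 had adjusted p of 2.64e-12 and 2.06e-09, and the vesicle membrane proteins Ptprn and Ptprn2 were higher by 1.78 ± 0.21 and 0.81 ± 0.15. The prohormone convertase Pcsk1 did not pass (1.09), and the granin Chga, at -0.41, passed as lower with the replicate block (adjusted p = 0.0229, against 0.0718 without it).

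Irs4 differed by 5.31 ± 0.25 or 39.7-fold. With Irs4 among them, 5 of 22 genes of the insulin and IGF list were higher (22.7%) and 2 lower (9.09%). The shares over all genes were 5.71% and 7.39%, and the median of the list was -0.014. Igfbp5, a secreted IGF-binding protein, had 12124, 9869 and 10142 in C+ and 2880, 1987 and 2730 in C-. The adaptor Grb10 read 12080, 15184 and 15223 in C+ and 5641, 7220 and 7182 in C-. Both were higher on all 3 C+ arrays, by 2.09 ± 0.15 and 1.08 ± 0.17. A dim probe set of Igfbp5 had the opposite sign (-0.59), and with the mean of its probe sets the difference was 0.75 (adjusted p = 0.046). The growth factor Igf2 was lower, with 615, 428 and 489 in C+ and 1477, 1134 and 1279 in C- and a difference of -1.33 ± 0.23. Igfbpl1, related to the binding proteins, was lower by a difference of -3.12 ± 0.21. The insulin receptor Insr did not pass, at 0.23, and the IGF receptor Igf1r, at 0.31, passed with the replicate block (adjusted p = 0.0488, against 0.46 without it).

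Channel and receptor genes were called in both directions. Of 27 measured sodium, calcium and HCN channel genes, 8 were higher (29.6%) and 2 lower (7.41%), beside 5.71% and 7.39% of all genes. The larger of these differences were in accessory calcium channel subunits. Cacnb2 read 329, 466 and 483 in C+ and 95, 42 and 50 in C-, a difference of 2.64 ± 0.45. Cacna2d1 read 7503, 7437 and 7582 in C+ and 1489, 1512 and 1391 in C-, a difference of 2.35 ± 0.12. Both lay above all C- arrays, while Cacna2d3, of the same family as Cacna2d1, was lower (-0.90 ± 0.17). The sodium channel subunit Scn3b was higher by 1.33 ± 0.12 (adjusted p = 1.63e-06) and the calcium channel relative Cacng8 by 0.98 ± 0.18. Of 33 potassium channel genes, 2 were higher (6.06%) and 4 lower (12.1%), beside 5.71% and 7.39% of all genes, with Kcnq3 (-1.21 ± 0.25) and the glial channel Kcnj10 (-1.21 ± 0.26) on the lower side.

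Among 47 measured receptors for other transmitters, 8 were higher and 6 lower; with the replicate block 12 were higher and 7 lower. Calcr, the calcitonin receptor, had 1645, 2263 and 2394 in C+ and 100, 231 and 89 in C-. Gria4, an AMPA receptor subunit, had 3542, 3585 and 3161 in C+ and 769, 936 and 980 in C-. Neither overlapped between the groups (3.92 ± 0.29 and 1.93 ± 0.15). The nociceptin receptor Oprl1 was higher by 0.92 ± 0.16, while the glycine receptor subunit Glra2 (-1.71 ± 0.16), the somatostatin receptor Sstr2 (-1.83 ± 0.25), the NMDA receptor subunit Grin3a (-1.86 ± 0.36), the metabotropic receptor Grm3 (-2.59 ± 0.49) and the nicotinic subunit Chrna3 (-1.35 ± 0.25) were lower.

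Genes of synaptic vesicle release gave 9 of 37 higher and 2 lower, with a median of 0.35, and 14 and 3 with the replicate block. The calcium sensor of release Syt1 read 9852, 11855 and 12243 in C+ and 2899, 3593 and 3008 in C-. The vesicle protein Sv2b read 1050, 1059 and 1305 in C+ and 240, 316 and 420 in C-. The priming factor Unc13b read 2572, 2951 and 3813 in C+ and 993, 1288 and 1299 in C-. All 3 were higher in every C+ array than in any C- array (1.83 ± 0.14, 1.80 ± 0.23 and 1.37 ± 0.21), and the vesicle phosphoprotein Syn1 was higher by 0.83 ± 0.19. Of 16 calcium buffers and sensors, 6 were higher and 0 lower (6 and 2 with the replicate block), with a median of 0.17. Vsnl1, a neuronal calcium sensor, read 1357, 1701 and 1877 in C+ and 190, 282 and 195 in C-, a difference of 2.84 ± 0.19. S100a10, a partner of annexin known for binding serotonin receptors, read 7880, 5724 and 5106 in C+ and 924, 971 and 753 in C-, a difference of 2.79 ± 0.21. The groups did not overlap in either, and Necab2 was higher by 1.17 ± 0.18.

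Of 34 cytoskeletal genes shared by neurons, 4 were higher (11.8%) and 2 lower (5.88%), beside 5.71% and 7.39% of all genes. The median of the list was 0.0021. With the replicate block 8 were higher and 2 lower, beside 10.5% and 12.3% of all genes. The lower pair were neurofilament genes. Nefl read 4728, 5524 and 6724 in C+ and 11519, 14572 and 13570 in C-, a difference of -1.23 ± 0.15. Nefm read 4301, 3906 and 3190 in C+ and 8449, 8866 and 8299 in C-, a difference of -1.18 ± 0.19. Both were lower on every C+ array. The neuronal tubulin Tubb3, at 15040, 9588 and 8325 in C+ and 15080, 10662 and 12071 in C-, did not pass (-0.23 ± 0.19). Neuronal RNA-binding proteins were more often lower, 7 of 28 against 2 higher (9 and 6 with the replicate block): the splicing factors Rbfox1 (-1.73 ± 0.14), Rbfox3, whose protein is the neuronal marker NeuN (-1.37 ± 0.15), and Nova1 (-1.08 ± 0.19) were among them, with Celf2 (-0.97 ± 0.17) and Rbms3 (-1.54 ± 0.17).

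Axon guidance and migration genes were called in both directions. On the list of Slit, Robo, netrin and migration cues, 5 of 31 were higher and 8 lower (8 and 10 with the block). Reln, the secreted migration signal reelin, read 11285, 11381 and 12551 in C+ and 3487, 4529 and 4650 in C-. The attractant Ntn1 read 4093, 5678 and 5470 in C+ and 2640, 2359 and 2491 in C-. These were higher on all C+ arrays, by 1.48 ± 0.18 and 1.01 ± 0.14, and Ntn4 and the receptor Ret by 0.77 ± 0.16 and 1.17 ± 0.26. Robo3, the receptor that lets commissural axons cross the midline, read 144, 139 and 239 in C+ and 2355, 2173 and 2391 in C-, a difference of -3.69 ± 0.29. Robo1, the netrin receptor Unc5c and the guidance factor Draxin were also lower (-1.46 ± 0.23, -1.37 ± 0.20 and -2.44 ± 0.20), while the netrin receptor Dcc did not pass (0.23).

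Semaphorins, plexins and neuropilins gave 1 of 28 higher (3.57%) and 6 lower (21.4%), beside 5.71% and 7.39% of all genes. With the replicate block the counts were 4 and 9, beside 10.5% and 12.3% of all genes. Plxna2, a semaphorin coreceptor, had 482, 424 and 500 in C+ and 2442, 2423 and 2455 in C-. Nrp2, a neuropilin that binds secreted semaphorins, had 1408, 1242 and 1150 in C+ and 2875, 2588 and 2772 in C-. Both were lower without overlap (-2.36 ± 0.14 and -1.11 ± 0.17). Of 18 Eph receptors and ephrins, 0 were higher and 5 lower (1 and 8 with the replicate block), with Efnb2 at -1.82 ± 0.25. Among 31 adhesion genes, 5 cadherins and contactins were higher (16.1%) and 4 lower (12.9%), beside 5.71% and 7.39% of all genes. Cntnap5a, of the contactin-associated proteins, read 2019, 2216 and 2238 in C+ and 257, 247 and 201 in C-. The cadherin Cdh6 read 1278, 1459 and 1490 in C+ and 483, 472 and 329 in C-. Cntn2, a contactin of early commissural and motor axons, read 307, 383 and 436 in C+ and 4041, 3464 and 4495 in C-. The groups did not overlap in any of them, and the differences were 3.15 ± 0.17, 1.71 ± 0.19 and -3.39 ± 0.17 (-1.83 for Cntn2 with the mean of its probe sets); a dimmer probe set of Cntn2 had the opposite sign, the only such case among 22 other probe sets of 14 of the 40 genes with the largest differences, 16 of which passed in the same direction.

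Genes of glutamate neurons and of GABA and glycine neurons were mostly lower. Of 17 measured genes of glutamate neurons, 15 were lower and 0 higher, with a median of -3.04. The vesicular glutamate transporter Slc17a6 read 91, 215 and 231 in C+ and 1716, 2425 and 2276 in C-. The differentiation factor Neurod6 read 81, 142 and 123 in C+ and 2008, 2133 and 1670 in C-. These were differences of -3.59 ± 0.28 and -3.98 ± 0.28, without overlap, and other factors of the list, such as Nhlh2 (-3.51 ± 0.23), Ebf3 (-3.35 ± 0.15), Pou4f1 (-3.27 ± 0.22) and Tlx3 (-3.0 ± 0.34), went the same way. Of 16 genes of GABA and glycine neurons, 11 were lower and 0 higher, with a median of -2.39: the vesicular transporter Slc32a1 read 777, 567 and 515 in C+ and 4308, 2683 and 3192 in C-. Gad2, an enzyme of GABA synthesis, read 187, 357 and 263 in C+ and 1172, 1071 and 1274 in C-. The homeobox gene Gbx1 read 110, 25 and 157 in C+ and 2025, 1250 and 1541 in C-. C+ was lower without overlap in each (-2.43 ± 0.22, -2.13 ± 0.22 and -4.16 ± 0.50), and Slc32a1 kept signals above the median in C+. Gad1, the other enzyme of GABA synthesis, read 1836, 2182 and 2357 in C+ and 2270, 2408 and 2441 in C- and did not pass (-0.17 ± 0.19), although it did with the mean of its 2 probe sets (-0.76, adjusted p = 0.0275). Of 8 motor and cholinergic genes 2 were lower, Isl1 (-2.26 ± 0.25) and Lhx3 (-3.30 ± 0.64), and Chat, the enzyme of acetylcholine synthesis, did not pass (0.57). Of 10 genes of dopamine and noradrenaline neurons 3 were lower, among them the dopamine synthesis enzyme Th (-1.53 ± 0.37), 1 was higher, Foxp1 (1.14 ± 0.29), and 6 did not pass. Th lost its call without C- replicate 1 or 3 (adjusted p = 0.0529 and 0.0581), and Foxp1 without C- replicate 2 or 3 (0.0718 and 0.0507) or with the mean of its probe sets (0.184).

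Several transcription factors known from the dorsal neural tube were among the genes lower in C+. Of 13 measured Pax, Meis and Pbx genes 5 were lower and 1 higher, and 7 did not pass. Pax7, a factor of the dorsal neural tube, read 6, 4 and 23 in C+ and 394, 285 and 229 in C-. Pax3, which acts in the same territory, read 103, 220 and 102 in C+ and 1264, 1258 and 1195 in C-. Skor1, a corepressor of dorsal interneurons, read 689, 837 and 1023 in C+ and 11264, 11034 and 10306 in C-. All were lower on every C+ array, by differences of -3.97 ± 0.40, -3.13 ± 0.28 and -3.68 ± 0.20, and the homeobox genes Msx3 and Gbx2 differed by -3.39 ± 0.32 and -3.51 ± 0.32. Pdlim4, Pdzrn3 and the transcript Gm17750 completed the 20 genes with the largest lower level in C+ (-3.62 ± 0.48, -3.34 ± 0.23 and -3.45 ± 0.30). Of 18 measured Hox genes, which mark position along the hindbrain and spinal cord, 11 were lower, 0 higher and 7 not called, with a median of -1.28. Hoxc5 read 354, 470 and 749 in C+ and 5850, 6267 and 6255 in C-. Hoxa5 read 1209, 1171 and 1193 in C+ and 16521, 11035 and 13488 in C-. Hoxb6 read 308, 608 and 659 in C+ and 3502, 4010 and 3725 in C-. None of these 3 overlapped between the groups (-3.59 ± 0.35, -3.49 ± 0.72 and -2.88 ± 0.35), and Hoxa2, expressed further forward, was lower by -1.32 ± 0.16. Hoxb3 and Hoxd3 did not pass (-0.51 and -0.26), although Hoxb3 did in a fit of the 6 caudal arrays alone (adjusted p = 0.0242).

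Genes of dividing and undifferentiated cells were lower in C+. Of 49 genes of the cell cycle, C+ was lower in 35 and higher in 0, with a median of -1.40. Mki67, the proliferation marker, read 127, 557 and 401 in C+ and 1270, 2661 and 2007 in C-. Ccnd1, a cyclin of the first growth phase, read 836, 820 and 931 in C+ and 2862, 2628 and 3188 in C-. Ccnb2, a cyclin of division, read 155, 144 and 158 in C+ and 621, 700 and 780 in C-. The C+ arrays were lower in each (-2.58 ± 0.45, -1.73 ± 0.16 and -2.12 ± 0.22). Of 38 genes of neural progenitors and Notch signalling, 24 were lower and 1 higher, with a median of -1.12: the Notch target Hes5 read 257, 194 and 159 in C+ and 1928, 1886 and 1688 in C-. The progenitor factor Sox2 read 1713, 2800 and 2519 in C+ and 5111, 5871 and 5190 in C-. Neurog2, a factor of neurons about to be born, read 116, 224 and 166 in C+ and 1544, 1771 and 1889 in C-. None overlapped between the groups, and they differed by -3.13 ± 0.24, -1.23 ± 0.18 and -3.33 ± 0.24. Sox1, usually grouped with Sox2 as a progenitor gene, was the member that was higher, at 985, 1375 and 1012 in C+ and 463, 499 and 482 in C-, a difference of 1.19 ± 0.17. Nes, the intermediate filament of progenitors, did not pass (-0.51).

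Signals that pattern the neural tube from other sources were mostly lower, 22 of 48 against 1 higher on the list of FGF, Wnt and retinoic acid genes, with a median of -0.62. Fgf15, a growth factor of the neural tube, read 61, 46 and 25 in C+ and 831, 672 and 997 in C-. Crabp1, a retinoic acid binding protein, read 914, 1550 and 1421 in C+ and 13687, 11332 and 13039 in C-. Its relative Crabp2 read 1104, 757 and 665 in C+ and 6529, 4644 and 5300 in C-. All 3 differed by more than 2-fold without overlap (-4.01 ± 0.33, -3.31 ± 0.31 and -2.71 ± 0.23). Wnt5a was lower by -2.06 ± 0.20 and the feedback inhibitor Spry2 by -1.57 ± 0.17. Fgf13, an intracellular relative of the FGFs that binds sodium channels, was the member called higher (0.74 ± 0.15). Its relative Fgf14 did not pass through its brightest probe set (1.16 ± 0.43), whereas another of its kept probe sets averaged 422 in C+ and 97.3 in C- and was higher by 1.97 ± 0.34 (adjusted p = 0.00247 over all probe sets). Fgf14 passed with the mean of its probe sets (adjusted p = 0.000231), with the replicate block (0.00153) and without C+ replicate 1 (0.0332).

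Markers of cells from outside the neural tube wall lay higher in C-. Of 7 red blood cell genes, 5 were lower in C+ and 0 higher; the embryonic globin Hba-x read 1099, 1805 and 1526 in C+ and 15099, 14437 and 14088 in C-. Another globin, Hbb-bh1, read 91, 328 and 394 in C+ and 2445, 3281 and 4018 in C-. Both were lower on every C+ array (-3.32 ± 0.24 and -3.73 ± 0.49). The summed signal of the 7 genes was 6275 to 11282 on the C+ arrays and 43517 to 46995 on the C- arrays, and no listed gene was at 0 on any caudal array. For mesenchyme, meninges and pericytes, 7 of 13 were lower and 1 higher, with sums of 6272 to 6755 in C+ and 21557 to 25691 in C-; the pericyte genes Rgs5 and Pdgfrb differed by -1.89 ± 0.21 and -2.18 ± 0.30. Of 11 genes of neural crest, sensory ganglia and early glia, 7 were lower and 0 higher, with sums of 3475 to 4776 and 17151 to 19739; Tfap2a read 201, 336 and 310 in C+ and 3231, 3223 and 3216 in C-. Endothelial sums were 1238 to 1556 in C+ and 2059 to 2841 in C- (3 of 10 lower), and macrophage sums overlapped, at 1236 to 1347 and 1281 to 2144 (1 of 9 lower). The part of these cells in the genes lower in C+ was not tested.

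Dcn, the matrix proteoglycan decorin, was the mesenchymal gene that ran against its list. Its signals were 2494, 2178 and 2364 in C+ and 502, 292 and 457 in C-, a difference of 2.50 ± 0.29 (adjusted p = 2.38e-05). The collagen gene Col3a1 on the same list read 156, 138 and 173 in C+ and 434, 617 and 1046 in C-, lower by -2.01 ± 0.34.

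Genes used by all cells were seldom called without the replicate block. Of 54 subunits of the mitochondrial respiratory chain, 0 were called (0 higher and 4 lower with the replicate block) and the median was -0.14. Of 29 ribosomal protein genes, 1 was lower, around a median of -0.26; with the replicate block 12 of the 29 were lower, beside 12.3% of all genes. Among 26 immediate early and stress genes, which can respond to dissociation, 6 were lower and 0 higher, with a median of -0.24; Ddit4 and Ier5 differed by -1.60 ± 0.19 and -1.35 ± 0.18, while Jun, at -0.61, passed with the replicate block (adjusted p = 0.0142, against 0.209 without it).

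**Figure D3:**
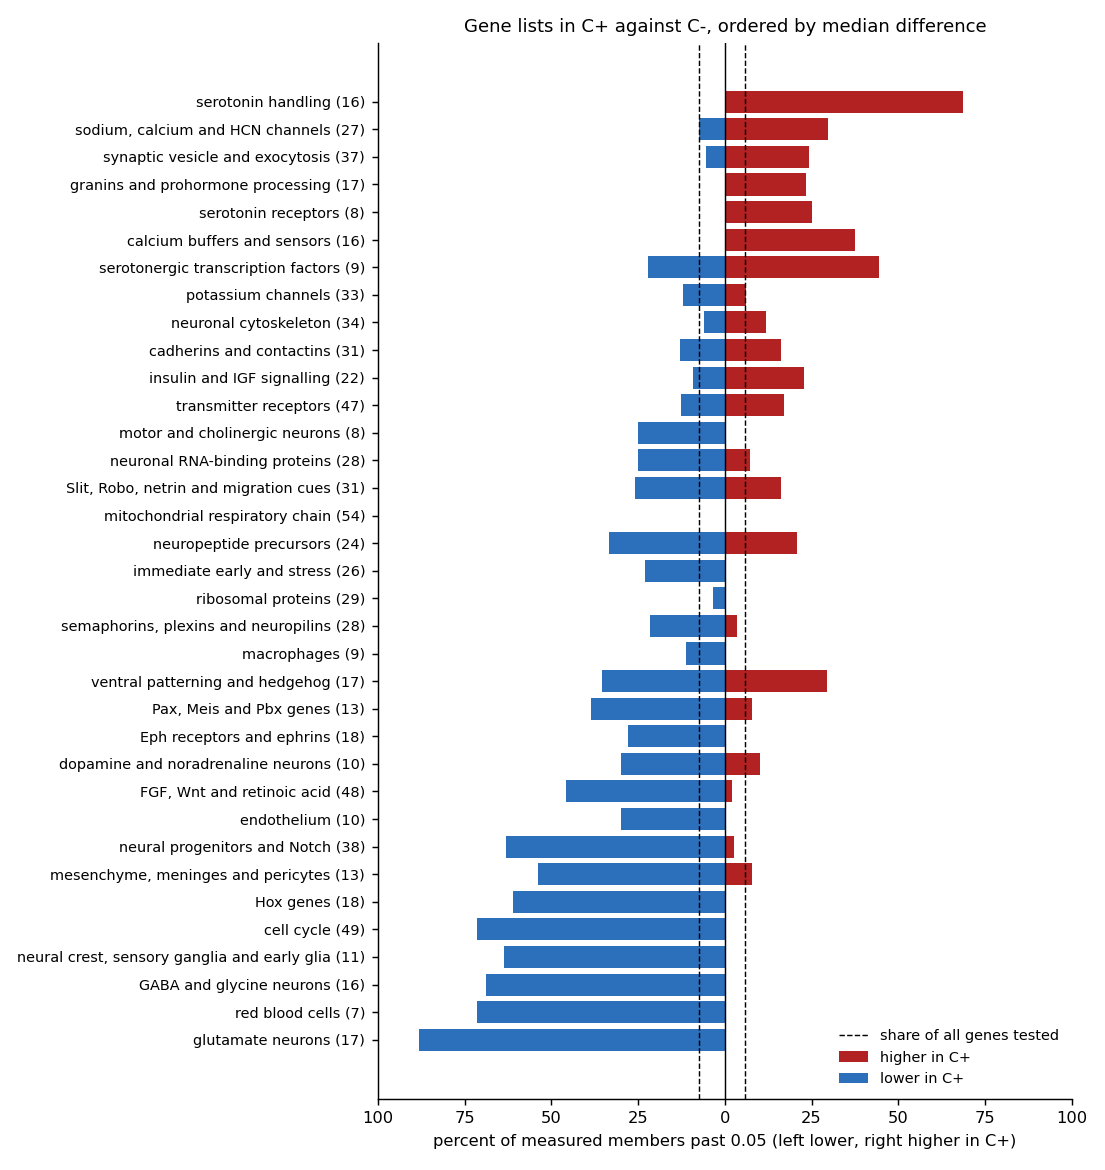
For each of 35 gene lists, with the number of measured members in brackets, bars give the percent of members called higher in C+ (right) and lower in C+ (left), and dashed lines the shares over all genes tested, 5.71% and 7.39%; lists are ordered by their median difference. Serotonin handling is at the top with 11 of 16 members higher, and glutamate neurons at the bottom with 15 of 17 members lower.

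The caudal difference was then set against the rostral one, R+ minus R-, through the difference of differences, in which 150 genes passed (1.17%), 87 with a greater caudal difference (0.677%) and 63 with a smaller one (0.49%); with the replicate block 340 passed. Greater and smaller refer to signed values here and below, so that a more negative caudal difference counts as smaller. Of the 150, 105 were also called between C+ and C-, 61 higher and 44 lower. With arrays scaled to a common median in place of the deposited scaling, 120 passed and 68.3% of them, in place of 58%, were greater in the caudal comparison. Among the 376 genes higher in C+ but not called between R+ and R-, 28 passed the test of the difference, and of the 326 lower ones 22 did, so that a call in 1 domain alone was seldom a tested difference between domains.

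Irs4, a marker given with the choice of arrays, led the genes with a greater caudal difference. Its rostral signals were 269, 368 and 340 in R+ and 296, 410 and 289 in R-, so that R+ and R- overlapped and the rostral difference was -0.019 ± 0.25, and the difference of differences was 5.33 ± 0.35 (adjusted p = 1.28e-06). Cntnap5a behaved in the same manner, with 283, 336 and 257 in R+ and 250, 295 and 274 in R- and 3.06 ± 0.24 (adjusted p = 4.93e-06). Trh was near the bottom of the scale on the rostral arrays (57, 17 and 25 in R+ and 13, 9 and 25 in R-); its difference of differences of 3.98 ± 0.75 (adjusted p = 0.0137) rested on all 3 C+ arrays, with adjusted p of 0.0771, 0.0671 and 0.0811 without C+ replicate 1, 2 or 3. Ddc was higher in both serotonin populations, with 15667, 15207 and 14259 in R+ and 1739, 1321 and 1315 in R-. Every R+ array read more Ddc than any C+ array, and the C- arrays read far less than the R- arrays; the rostral difference was 3.37 ± 0.14 and the difference of differences 2.21 ± 0.20 (adjusted p = 2.39e-05), or adjusted p = 0.0895 with the mean of its probe sets. The small GTPase Diras2 was likewise higher in both, with 1554, 1665 and 1474 in R+ and 633, 702 and 679 in R- and a rostral difference of 1.21 ± 0.15, and passed at 3.16 ± 0.21 (adjusted p = 1.28e-06, or 0.0598 with the mean of its probe sets). Tph2 and Slc6a4 did not pass this test, at -0.95 ± 0.48 and 0.83 ± 0.46.

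A set of 20 genes was called in opposite directions in the domains, 11 higher and 9 lower in C+, and all 20 passed the test of the difference. Shox2, a homeobox factor, had 19007, 18830 and 16780 in C+ and 3831, 3284 and 2945 in C-, against 342, 523 and 570 in R+ and 2814, 2937 and 2829 in R-. In the caudal domain the serotonin neurons were higher by 2.44 ± 0.17, in the rostral domain the other cells, by -2.59 ± 0.17 for R+ minus R-. Tac1 had 130, 174 and 174 in R+ and 467, 469 and 664 in R-. Foxa2 had 380, 486 and 468 in R+ and 1503, 1189 and 1314 in R-. Nkx6-1 had 236, 237 and 122 in R+ and 915, 658 and 474 in R-. These 3 were lower in R+ (-1.67 ± 0.20, -1.57 ± 0.33 and -1.74 ± 0.37) and higher in C+. Their differences of differences were 4.39 ± 0.28, 4.03 ± 0.47 and 3.85 ± 0.52. For Foxa2 the serotonin populations were close, with means of 515 in C+ and 445 in R+, whereas C- averaged 95.3 and R- 1335. Ndnf, a secreted neuronal factor, followed (3.04 ± 0.32), as did Calb2, the calcium buffer calretinin (4.14 ± 0.70), whose caudal call (adjusted p = 0.0357) was lost without any single caudal array except C+ replicate 3, at adjusted p of 0.0684 to 0.104. Shh, Foxa1, Cdh6, Ntn1 and Dcn were higher in C+ and not called between R+ and R- (-0.17, 0.21, -0.24, -0.24 and -0.20), and the difference passed for each, at 2.75 ± 0.49, 2.35 ± 0.39, 1.95 ± 0.27, 1.25 ± 0.19 and 2.69 ± 0.41.

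Gad1 differed between the domains in another way. Its rostral signals were 147, 187 and 218 in R+ and 1398, 2210 and 1611 in R-, so that it was lower in R+ by a difference of -3.16 ± 0.19, whereas the caudal groups overlapped, and the difference of differences was 3.0 ± 0.26 (adjusted p = 1.8e-05, or 0.0124 with the mean of its probe sets). Gad2 and Slc32a1, which serve the same transmitter, were lower in both serotonin populations and did not pass this test (-0.083 ± 0.31 and 0.90 ± 0.31).

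The other side held genes lower in C+ and higher in R+. Pdzrn4, a ring finger protein, read 696, 276 and 343 in C+ and 1288, 951 and 996 in C-, against 9157, 5640 and 4755 in R+ and 1023, 652 and 747 in R-. Nrp2 read 8284, 6066 and 5799 in R+ and 2846, 2246 and 1956 in R- in the rostral domain. Gfra1, a receptor of the GDNF family, read 785, 873 and 916 in C+ and 2197, 2448 and 2234 in C-, against 4835, 5310 and 4690 in R+ and 2382, 3461 and 2892 in R-. In these genes every C+ array lay below the C- arrays, which their choice required, and every R+ array lay above the R- arrays. The differences of differences were -4.35 ± 0.43, -2.62 ± 0.23 and -2.19 ± 0.20. Glra2 and Hoxb6 were lower in C+ and not called rostrally; Hoxb6 was dim there (47, 111 and 108 in R+ and 46, 115 and 66 in R-), and the tests of the difference gave -2.14 ± 0.23 and -3.09 ± 0.50. Hoxc5 read 4, 12 and 16 in R+ and 38, 55 and 16 in R-, near the bottom of the scale, where the added 10 weighs on the rostral difference. It passed at -2.47 ± 0.50 (adjusted p = 0.0224), but not with 1 added in place of 10 (adjusted p = 0.384), with the mean of its probe sets (0.125) or without the variance trend (0.0563), and it lost its call without C+ replicate 2 or without any single C- array, with adjusted p from 0.0633 to 0.0838. The transcript A930009L07Rik, which was lower in C+ and higher in R+, and Nptx1, a secreted pentraxin of synapses, passed at -2.86 ± 0.22 and -2.19 ± 0.35; Nptx1 did not pass with the mean of its probe sets (adjusted p = 0.304). A further pair of transcripts lay over Hox genes, Hoxb5os across Hoxb5 and Hoxb6 and Gm15050 within Hoxa3, so that their signals may not be separable from those genes.

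**Figure D4:**
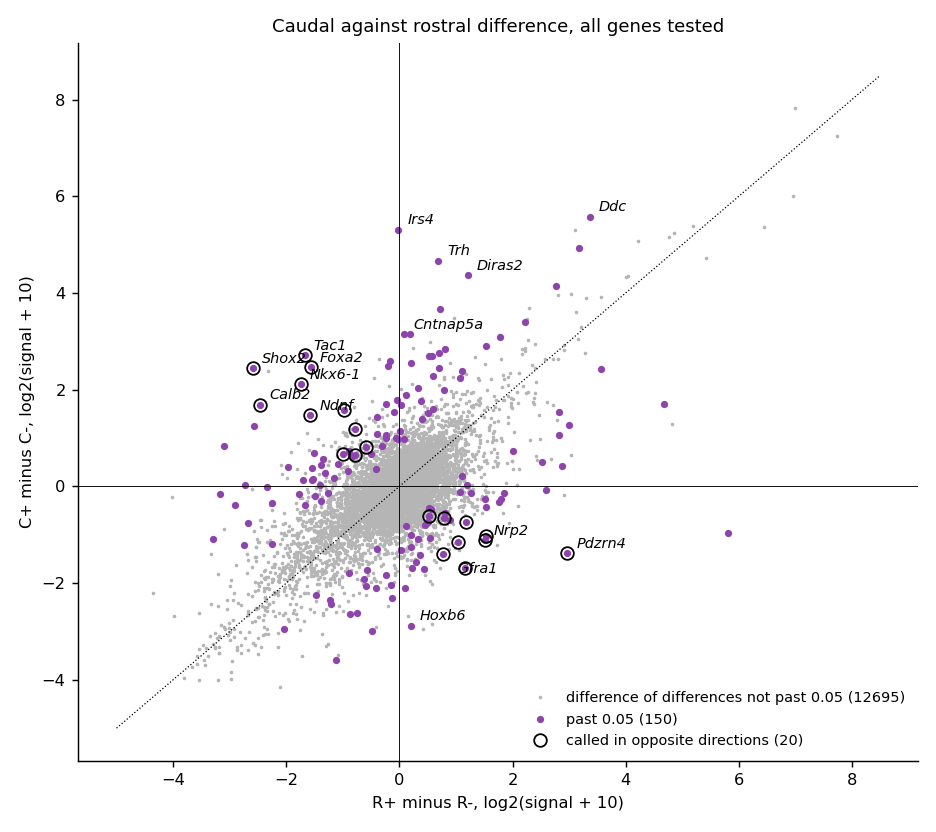
Each point is 1 of the 12845 genes tested; the horizontal axis is R+ minus R- and the vertical axis C+ minus C-, both on the log2(signal + 10) scale, and the dotted line marks equal differences. The 150 genes past 0.05 in the difference of differences are coloured and the 20 called in opposite directions are ringed; Irs4 lies at 5.31 on the caudal axis and -0.019 on the rostral one.

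**Figure D5:**
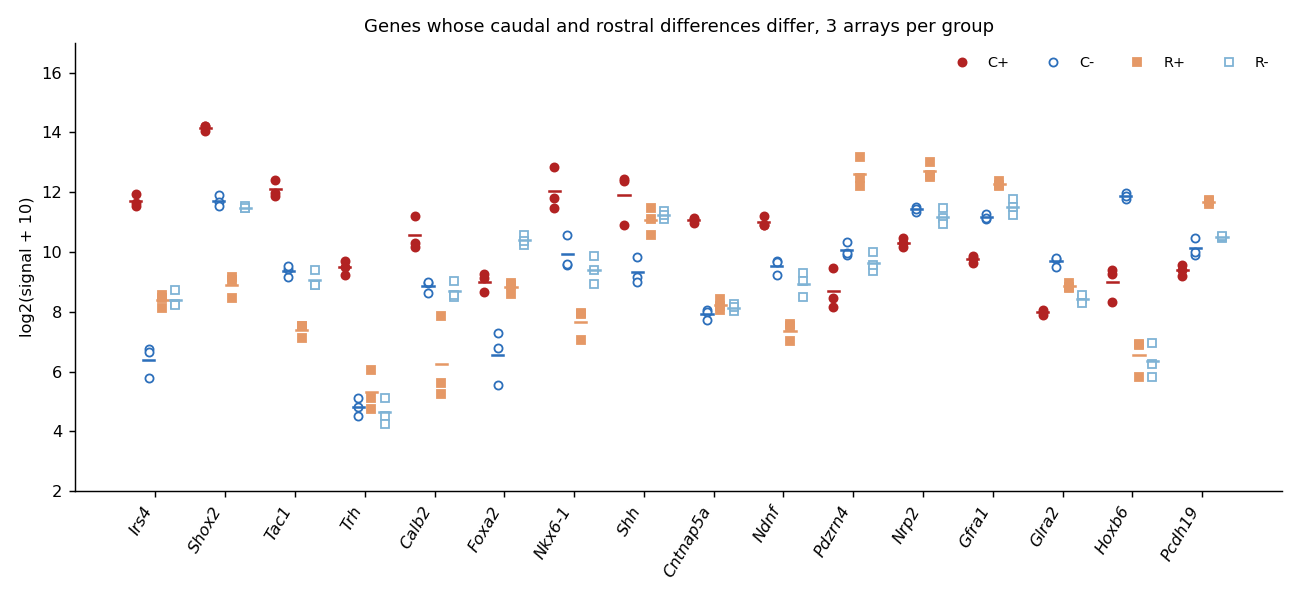
Signals of 16 genes on all 12 arrays, as log2(signal + 10), with short lines for group means. Circles are caudal and squares rostral arrays, filled for fluorescent-positive and open for negative cells; in Shox2 and Tac1 the C+ arrays lie above the C- arrays and the R+ arrays below the R- arrays.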

How the data were processed

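RNA of sorted cells was measured on 12 Affymetrix mouse arrays, 6 of them caudal. The deposited values are signal intensities on a linear scale made with MAS5, per the submitters' processing notes; no version or settings were found in the labels. On every array the mean without the lowest and highest 2% was 500. Precision is limited by the number of arrays. Of 45101 probe sets, 64 controls were left out; a probe table paired 34945 with 1 gene symbol, 932 with several and 9160 with none, and only the first were used. Probe sets had to exceed 107 (the overall median signal) on 3 or more arrays, and each gene was represented by its brightest kept probe set. Probe sets with names ending in _x_at were used only for genes with no other kept. This left 12845 genes of 18193. The deposited intensities were turned into log2(signal + 10).

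Group means were estimated from all 12 arrays with limma 3.58.1 in R 4.3.3 (eBayes with a trend, two-sided), with contrasts C+ minus C- and its difference from R+ minus R-, adjusted by the Benjamini-Hochberg method at 0.05. The procedure was tested on simulated data. Noise there was independent between arrays, so that the test did not cover the correlated deviations given next. Deviations of arrays with the same replicate number correlated at 0.118 to 0.52 over 18 pairs, all above 0.1. Those of other pairs from different groups correlated at -0.398 to 0.273. Pairs within replicate 1 were at 0.334 to 0.52. C+ and C- correlated at 0.216 for replicate 2 and at 0.167 for replicate 3. C- replicate 2 with C+ replicate 3 reached 0.273, and C+ replicate 2 with C- replicate 3 was at 0.0588. Whether numbers 2 and 3 pair the samples was not tested. The origin of the numbers is not given in the labels.

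Named genes were the 20 per direction with the largest caudal difference among genes called, with groups that did not overlap and the higher mean over 428, the 10 per direction with the largest difference of differences under the same conditions, members of 35 gene lists (806 genes measured), and, for the promoters, the 3 leading serotonin handling genes. The arrays and lists were chosen with earlier results of these data known. Alternatives were 23: other offsets, filters, scalings, gene summaries, variance models, a replicate block, beta-actin and Gapdh ratio covariates (the latter chosen after seeing the data), and arrays left out.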

Additional observations from a re-analysis of the deposited data

Results flagged for a closer look

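Of the genes named above, or called in opposite directions in the domains, 45 had caudal and rostral differences that differed from each other by the difference of differences, at an adjusted p under 0.05 (limma). Values in brackets are (C+ minus C-) minus (R+ minus R-) on the log2(signal + 10) scale, n = 3 arrays per group. They depend on C- and R- as well as on C+ and R+. Nkx2-2, for example, averaged 2203 in C+ and 2592 in R+, but 113 in C- and 373 in R-. Genes higher in C+ than in C- and lower in R+ than in R- were Shox2 (5.03), Tac1 (4.39), Calb2 (4.14), Foxa2 (4.03), Nkx6-1 (3.85), Ndnf (3.04), Fras1 (2.55), Tmem178 (1.97), Lhfp (1.66), Igfbp4 (1.44) and Tmtc2 (1.39). Genes lower in C+ and higher in R+ were Pdzrn4 (-4.35), A930009L07Rik (-2.86), Nrp2 (-2.62), Hs6st2 (-2.54), Mef2c (-2.19), Gfra1 (-2.19), Pcdh19 (-1.91), Adcy2 (-1.44) and Cbln2 (-1.14). The signed caudal difference was also greater than the rostral one, without opposite calls, for Irs4 (5.33), Trh (3.98), Diras2 (3.16), Cntnap5a (3.06), Gad1 (3.0), Shh (2.75), Dcn (2.69), Foxa1 (2.35), Ddc (2.21), Cdh6 (1.95), Nr3c1 (1.74), Cartpt (1.54), Nkx2-2 (1.37), Ntn1 (1.25) and Gata2 (1.18). For Gad1 and Cartpt both differences were negative and the caudal one was the less negative, so that C+ and C- lay closer together than R+ and R-. The signed caudal difference was smaller, that is more negative, without opposite calls, for Hoxb6 (-3.09), Hoxb5os (-2.51), Hoxc5 (-2.47), Gm15050 (-2.20), Nptx1 (-2.19), Glra2 (-2.14), Wnt5a (-1.47), Draxin (-1.23), Rbfox1 (-1.15) and Plxna2 (-1.14). In these genes C+ and C- lay further apart than R+ and R-.

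Of these 45 results, 11 passed under all the alternatives in which they could be computed. In these alternatives rostral arrays were left out only with their whole replicate number and never singly. A further 17 lost their call only when all arrays of a replicate number were left out, 7 lost it without 1 caudal array, and the other 10 lost it under another choice of analysis. The 7 were Adcy2 without C+ replicate 2 or C- replicate 3 (adjusted p = 0.055 to 0.0616); Cartpt without C+ replicate 2 or C- replicate 1 (adjusted p = 0.0549 to 0.0671); Draxin without C+ replicate 2, C+ replicate 3, C- replicate 1 or C- replicate 3 (adjusted p = 0.127 to 0.15); Hoxb5os without C- replicate 3 (adjusted p = 0.0625); Nr3c1 without C+ replicate 2, C+ replicate 3, C- replicate 1 or C- replicate 2 (adjusted p = 0.0518 to 0.0953), beside Trh and Hoxc5 as given above. Among the genes with opposite calls, the caudal call itself was lost for Adcy2 without C+ replicate 1, C+ replicate 2, C- replicate 1, C- replicate 2 or C- replicate 3 (adjusted p = 0.0829 to 0.143); Hs6st2 without C+ replicate 2, C+ replicate 3 or C- replicate 1 (adjusted p = 0.0538 to 0.0547); Igfbp4 without C+ replicate 2, C+ replicate 3, C- replicate 1 or C- replicate 2 (adjusted p = 0.055 to 0.0726); Mef2c without C- replicate 2 (adjusted p = 0.0813), beside Calb2. The choices of analysis that ended a call in the difference of differences were, with adjusted p in brackets: with no variance trend, Cartpt (0.0563), Draxin (0.142), Gata2 (0.0507), Hoxb5os (0.0795), Hoxc5 (0.0563), Nr3c1 (0.0502) and Shh (0.0563); with median scaling, Cbln2 (0.0825), Draxin (0.338), Plxna2 (0.0773) and Rbfox1 (0.122); with the mean of probe sets, Ddc (0.0895), Diras2 (0.0598), Draxin (0.0595), Gata2 (0.059), Hoxc5 (0.125), Mef2c (0.536), Nptx1 (0.304), Plxna2 (0.17), Rbfox1 (0.372) and Wnt5a (0.0965); with 1 added in place of 10, Draxin (0.0539), Hoxc5 (0.384) and Trh (0.0741); with no filter on low signals, Draxin (0.054) and Nr3c1 (0.0532). Those that ended the caudal call of a gene with opposite calls were: with no filter on low signals, Adcy2 (0.0853); with median scaling, Adcy2 (0.0912), Cbln2 (0.0815) and Hs6st2 (0.066); with quantile normalization, Adcy2 (0.0584); with the 6 caudal arrays alone, Adcy2 (0.0886), Hs6st2 (0.0583) and Mef2c (0.0638); with 1 added in place of 10, Calb2 (0.0552); with no variance trend, Calb2 (0.0839); with the mean of probe sets, Igfbp4 (0.0565), Mef2c (0.328) and Pcdh19 (0.0919). The beta-actin 3' to 5' ratio was higher on the caudal arrays than on the rostral ones, as given above, and with this ratio as a covariate 177 genes passed the difference of differences, with all of the 150 among them; with the Gapdh ratio 204 passed, with 148 of the 150.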

How the results depend on the processing

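Adding the replicate number as a block raised the number of genes called between C+ and C- from 1683 to 2929. It raised the number past the difference of differences from 150 to 340. In both cases all of the former were among the latter. The block ended no call named above and added those given beside Chga, Fgf14, Igf1r, Smo and Jun. Array weights gave 3803 and 599 and added calls for Chga, Dcc, Fgf14, Jun and Tubb3; the Gapdh ratio as a covariate, chosen after seeing the data, added Smo and ended Olig2 and Htr2c. Leaving out arrays gave 668 to 1872 genes between C+ and C-, with 810 without replicate 2 and 668 without replicate 3 of all groups, and 27 to 219 in the difference of differences, with 34 and 27. The remaining alternatives kept both counts within 1.5 times. Of 180 caudal differences, 131 kept their direction and their side of the threshold under every alternative and 49 did not, 23 of them only without a whole replicate number. The mean of a gene's probe sets also moved the differences of AW551984 (3.09), Ddc (4.70), Hoxc5 (-2.79), Htr1a (2.12), Maoa (2.26), Pax7 (-2.49), Skor1 (-2.71), Syt1 (1.22) and Tfap2a (-2.77) by over 1.5-fold, with their calls kept. Signs changed for 6 genes that were not called: with the mean of probe sets Htr1b was at 1.27, with the Gapdh ratio as a covariate Insr was at -0.013, Pts at -0.013, Spr at 0.17 and Tubb3 at 0.0096, and, with arrays left out, Spr ran from -0.43 to 0.13, Pts from -0.13 to 0.094 and Tph1 from -0.82 to 0.023. The small difference in the beta-actin ratio, 0.044, changed sign with the arrays left out, to -0.026, -0.52, -0.39 and -0.50, and ran from -0.52 to 1.01. The difference of differences could not be fitted on the 6 caudal arrays alone. The cause of these changes was not tested. No detection calls were used, so that a dim signal cannot be told from background.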
